A study of Mus musculus with 12 samples.

Results

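The genes described here are 10 molecular chaperones of the mouse, 5 of the endoplasmic reticulum (ER) and 5 of the cytosol, chosen by symbol out of the 25239 gene symbols of each deposited count table. The ER genes are Hspa5, Hsp90b1, Calr, Canx and Pdia4, and the cytosolic genes are Hspa1a, Hspa1b, Hsph1, Dnajb1 and Hspb1. All 10 were present in both tables and passed the filter on low counts in both. The study sequenced RNA of cardiomyocytes of the mouse heart, in 4 groups of 3 libraries (12 in all). The first table (the first set) holds the groups Chaf1a cko and Ctrl, and a separate table (the 3M set) holds Chaf1a cko 3M and Ctrl 3M. Mice of both cko groups carried Myh6-Cre and Chaf1a f/f, that is, floxed alleles of Chaf1a and a Cre recombinase driven by a promoter active in cardiomyocytes. Mice of both Ctrl groups, whose genotype label is WT, carried the same floxed alleles without Cre, so all groups share the floxed alleles and the presence of Cre goes together with the genotype. Chaf1a encodes the large subunit of CAF-1, the complex that places new histones on replicated DNA. What 3M stands for is not written out in the labels, and ages are not given. Per the protocols, RNA was taken from cultured cardiomyocytes with TRIzol. Whether the 3 libraries of a group stem from different animals is not stated in the labels, so the p-values below describe the spread among these libraries, which may be technical.

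Proteins that enter the secretory pathway fold in the ER with the help of chaperones that bind unfolded chains, lectin chaperones that hold newly glycosylated chains, and enzymes that form disulfide bonds. When unfolded protein builds up there, the sensors of the unfolded protein response (Atf6, Ern1 and Eif2ak3) switch on ER chaperone genes, in part through a promoter motif called the ER stress response element (ERSE). In the cytosol, heat and other protein damage release heat shock factor 1, which binds heat shock elements (HSE) and switches on the inducible chaperones. In cardiomyocytes the ER is continuous with the sarcoplasmic reticulum, the calcium store of contraction, and several ER chaperones bind calcium.

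Stretches of 7 promoters are shown, 4 of ER genes and 3 of cytosolic genes, because they hold the motif searched for in each compartment. The sequences are RefSeq's, in GRCm38.p6, each given 5′ to 3′ on the gene's own strand and lying wholly before the transcription start. Capitals in the first 4 mark the fixed letters of ERSE, which is CCAAT and CCACG with 9 bases of any kind between them, on either strand (it contains the motif CCAAT). Capitals in the last 3 mark the fixed letters of an HSE of 2 units, GAANNTTC.
Hspa5 chr2:34771980-34772069 (+ strand): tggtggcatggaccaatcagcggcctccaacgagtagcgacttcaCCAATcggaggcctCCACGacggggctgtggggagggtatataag
Hsp90b1 chr10:86705525-86705669 (- strand): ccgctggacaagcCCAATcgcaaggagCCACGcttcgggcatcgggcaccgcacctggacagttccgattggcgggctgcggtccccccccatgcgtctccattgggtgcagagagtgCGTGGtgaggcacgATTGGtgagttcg
Calr chr8:84847022-84847106 (- strand): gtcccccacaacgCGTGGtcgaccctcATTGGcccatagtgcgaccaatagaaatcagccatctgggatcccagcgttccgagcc
Canx chr11:50325764-50325858 (- strand): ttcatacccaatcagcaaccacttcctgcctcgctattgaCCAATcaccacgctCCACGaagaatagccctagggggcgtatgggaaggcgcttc
Hspa1a chr17:34972242-34972371 (- strand): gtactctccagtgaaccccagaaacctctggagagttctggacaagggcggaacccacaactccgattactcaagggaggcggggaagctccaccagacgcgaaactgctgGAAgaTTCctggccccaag
Hspa1b chr17:34959324-34959453 (- strand): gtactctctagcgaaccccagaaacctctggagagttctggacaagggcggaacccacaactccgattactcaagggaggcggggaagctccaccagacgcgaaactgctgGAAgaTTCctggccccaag
Hspb1 chr5:135887774-135887843 (+ strand): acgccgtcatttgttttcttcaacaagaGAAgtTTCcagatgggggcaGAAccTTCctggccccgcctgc

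ERSE occurred in the 250 bases before the start of 4 of the 5 ER genes and 0 of the 5 cytosolic genes, against 35 of the 27025 genes with a promoter entry (0.13%). These 35 include the 4 ER genes. ERSE was searched as a known motif of ER chaperone genes, so its share among them is a description and not a test. Hspa5 held ERSE from -65 to -47 relative to the start, Calr from -162 to -144 and Canx from -145 to -127. Hsp90b1 held it in 2 places, from -212 to -194 and from -107 to -89. CCAAT alone, present in 37.5% of all genes, occurred in 5 of the 5 ER genes and 4 of the 5 cytosolic genes. Pdia4 held 3 copies of it but not the full ERSE. The HSE of 2 units, searched as GAANNTTC or TTCNNGAA on both strands, occurred in 4 of the 5 cytosolic genes and 0 of the 5 ER genes, against 14.5% of all genes. Hspa1a and Hspa1b held it from -104 to -97, Hspb1 from -117 to -110 and from -97 to -90, and Hsph1 also held it. Dnajb1 did not hold these letters, and 0 of the 10 genes held an HSE of 3 units, the same alternating pattern continued by 1 more GAA or TTC after 2 further bases (0.514% of all genes). A match is a description of the letters in this window and was not measured as a site in these cells. Over 250 bases the promoters of Hspa1a and Hspa1b differed at 3 positions, C44T, T47C and T249G, counted from 1 at the 5′ end of the window with the base of Hspa1a first.

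The first set had 15068468 to 20896673 counts per library, and the 3M set 10569325 to 16445963. Levels were not compared between the tables. Counts of Chaf1a itself were no lower under the cko label, at 22.0 to 29.0 CPM (CPM, counts scaled to the library size, here after normalization by the trimmed mean of M-values, TMM) against 18.8 to 32.3 CPM in Ctrl, and at 5.54 to 8.34 CPM in Chaf1a cko 3M against 1.88 to 9.75 CPM in Ctrl 3M. Directions are therefore given for libraries by their label, Chaf1a cko against Ctrl. Cardiomyocyte markers were abundant in every group: the 12 cardiomyocyte markers summed to 110958 to 111527 CPM in Chaf1a cko and 112895 to 117383 CPM in Ctrl, and to 51858 to 54116 CPM in Chaf1a cko 3M and 35290 to 43362 CPM in Ctrl 3M. Markers of fibroblasts, endothelium, mural cells and myeloid cells were present in every group. The 10 endothelial markers summed to 3327 to 3394 CPM in Chaf1a cko and 3298 to 3558 CPM in Ctrl. In the 3M set they summed to 8954 to 9831 CPM in Chaf1a cko 3M and 8582 to 12205 CPM in Ctrl 3M. Ctrl 3M replicate 1 had the highest endothelial sum and the lowest cardiomyocyte sum of that set. The part of other cell types in the chaperone values was not tested. In the first table genes of chemoreceptors, taken as mostly silent in the heart, had a median of 1.65 CPM and a 95th percentile of 5.32 CPM, and each of the 10 chaperones lay above that. In the 3M table their median and 95th percentile were both 0 CPM, so the background differed between the tables. In bulk RNA, fewer cells of a type and less RNA per cell cannot be told apart.

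In the first set, Hsp90b1 rose in the libraries labelled Chaf1a cko, and it was the only member of the 10 to pass the test. The fitted fold changes of the compartments pointed in opposite directions: all 5 ER genes were above 0 and all 5 cytosolic genes below 0 on the log2 scale, where 49.1% of all tested genes were above 0. The ER genes had a median log2 fold change of 0.10 and the cytosolic genes one of -0.13, against -0.01 over all 22965 genes tested. Of the ER genes 1 of 5 was higher and 0 lower, where 0.74% of all tested genes were called higher and 0.435% lower. Of the cytosolic genes 0 of 5 passed the quasi-likelihood test of edgeR after Benjamini-Hochberg adjustment. At an unadjusted p under 0.05 there were 3 of 5 ER genes and 2 of 5 cytosolic genes, against 10.1% of all genes. DESeq2's Wald test also called 1 of the 5 ER genes and 0 of the 5 cytosolic genes, against 479 of 11387 genes in all.

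The luminal chaperones of the HSP90 and HSP70 families were the ER genes whose groups stood apart. Hsp90b1 (Entrez gene 22027, chromosome 10, 86690841 to 86705444, minus strand) encodes GRP94, the HSP90 of the ER, which folds integrins and Toll-like receptors. Coordinates are those of RefSeq in GRCm38.p6. It overlaps the pseudogene 1810014B01Rik on the opposite strand, whose reads cannot be told apart from its own without the strand setting of the counting. On its own strand it overlaps Gm15344 and the miRNA gene Gm25745, whose reads no strand setting separates. It was at 719, 690.0 and 718 CPM in replicates 1 to 3 of Chaf1a cko, against 624, 581 and 604 CPM in replicates 1 to 3 of Ctrl. Every Chaf1a cko library was above every Ctrl library, and the lowest of them exceeded the highest Ctrl library by more than the spread within either group. The means were 709 ± 16.5 CPM in Chaf1a cko and 603 ± 21.4 CPM in Ctrl (SD, n = 3 each), a 1.18-fold difference. The log2 fold change was 0.23 (standard error, SE, 0.04; 95% interval 0.15 to 0.32; adjusted p 0.00413 in edgeR). Without Ctrl replicate 2 the log2 fold change was 0.21 and the adjusted p 0.0666, so the call then ended. Over all alternatives tried the adjusted p of Hsp90b1 ran from 1.478e-04 with DESeq2 to that value.

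Hspa5 (Entrez gene 14828, chromosome 2, 34772090 to 34776529, plus strand) encodes BiP, the HSP70 of the ER lumen, which binds unfolded chains and holds the stress sensors inactive. Its levels were 923, 915 and 901 CPM in replicates 1 to 3 of Chaf1a cko, against 878, 846 and 825 CPM in replicates 1 to 3 of Ctrl. The groups did not overlap, as for 2 of the 5 ER genes in the higher direction, where 8.33% of all tested genes did the same. In either direction 3 of the 10 members did not overlap, against 16.2% of all tested genes. With means of 913 ± 10.8 CPM in Chaf1a cko and 850 ± 26.9 CPM in Ctrl (SD, n = 3 each), the log2 fold change of 0.10 (SE 0.04, 95% interval 0.03 to 0.18) did not pass after adjustment (adjusted p 0.257 in edgeR).

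The lectin chaperones did not pass. Canx (chromosome 11, 50293957 to 50325673, minus strand) encodes calnexin, the membrane-bound lectin chaperone of new glycoproteins. It was at 460, 436 and 445 CPM in replicates 1 to 3 of Chaf1a cko, against 439, 377 and 385 CPM in replicates 1 to 3 of Ctrl. Ctrl replicate 1 lay among the Chaf1a cko libraries and the other Ctrl libraries below them. The log2 fold change was 0.16 (95% interval 0.04 to 0.27, SE 0.05, adjusted p 0.267 in edgeR). Without Ctrl replicate 1 it was 0.23 with an adjusted p of 0.0319, which made Canx a second called member. Calr (chromosome 8, 84842088 to 84846931, minus strand) encodes calreticulin, the soluble lectin chaperone and calcium buffer. It averaged 419 ± 8.14 CPM in Chaf1a cko and 405 ± 16.7 CPM in Ctrl (SD, n = 3 each), and its groups overlapped (log2 fold change 0.05, 95% interval -0.05 to 0.15).

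Pdia4 (chromosome 6, 47796141 to 47813512, minus strand) encodes ERp72, a protein disulfide isomerase. It was at 94.7, 58.3 and 87.5 CPM in replicates 1 to 3 of Chaf1a cko, against 78.2, 77.6 and 74.2 CPM in replicates 1 to 3 of Ctrl. The Ctrl libraries were close together, while Chaf1a cko replicate 2 lay below all of them and the other Chaf1a cko libraries above. The coefficient of variation (CV) of Pdia4 was 24.0% in Chaf1a cko, at the 98.1th percentile of genes of like level, and 2.79% in Ctrl. Its log2 fold change was 0.06 (95% interval -0.29 to 0.42), and it was -0.075 when Chaf1a cko replicate 1 was left out and 0.25 when replicate 2 was.

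**Figure D1:**
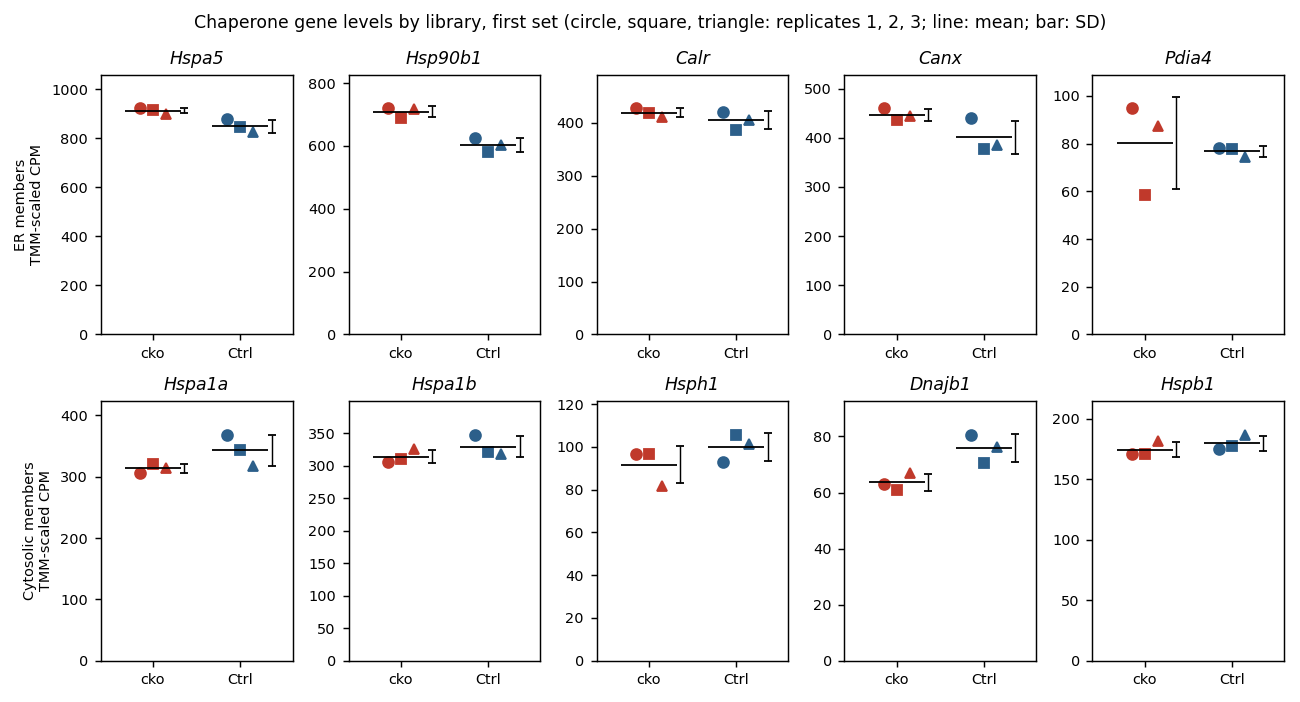
TMM-scaled CPM of each member in the 6 libraries of the first set, with Chaf1a cko left of Ctrl, a line for the mean and a bar for the SD over 3 libraries. The Chaf1a cko libraries of Hsp90b1, at 690.0 to 719 CPM, lie above its Ctrl libraries at 581 to 624 CPM, and those of Dnajb1, at 60.8 to 67.0 CPM, lie below its Ctrl libraries at 70.6 to 80.6 CPM.

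Among the cytosolic genes, Dnajb1 had the lowest fitted fold change in the first set. Dnajb1 (chromosome 8, 83608175 to 83612653, plus strand) encodes an HSP40 co-chaperone that hands unfolded clients to HSP70. It was at 63.1, 60.8 and 67.0 CPM in replicates 1 to 3 of Chaf1a cko, against 80.6, 70.6 and 76.4 CPM in replicates 1 to 3 of Ctrl. Every Chaf1a cko library lay below every Ctrl library, which held for 1 of the 5 cytosolic genes and for 7.85% of all tested genes. The means were 63.7 ± 3.11 CPM in Chaf1a cko and 75.9 ± 5.05 CPM in Ctrl (SD, n = 3 each). The log2 fold change of -0.25 (SE 0.09, 95% interval -0.44 to -0.07) did not pass after adjustment (adjusted p 0.275 in edgeR).

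Hspa1a (chromosome 17, 34969359 to 34972156, minus strand) and Hspa1b (chromosome 17, 34956429 to 34959238, minus strand) encode the stress-inducible HSP70 of the cytosol. Hspa1a was at 306, 320.5 and 314 CPM in replicates 1 to 3 of Chaf1a cko, against 368, 344 and 317 CPM in replicates 1 to 3 of Ctrl. For Hspa1b the levels were 306, 309.8 and 325 CPM in Chaf1a cko, against 347, 321 and 318 CPM in Ctrl. In both genes Ctrl replicate 1 was the highest library and the groups overlapped. The log2 fold changes were -0.13 (95% interval -0.24 to -0.01, adjusted p 0.430 in edgeR) for Hspa1a and -0.07 (95% interval -0.18 to 0.04, adjusted p 0.746 in edgeR) for Hspa1b. The genes are near-identical: 58.8% of the 50-base stretches of the Hspa1a transcript also occur in Hspa1b and 62.3% of those of Hspa1b in Hspa1a, so the split of reads between them is uncertain. Their summed counts gave a log2 fold change of -0.10 (adjusted p 0.462 in edgeR).

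Hsph1 (chromosome 5, 149616843 to 149636498, minus strand) encodes HSP110, a nucleotide exchange factor of HSP70. It averaged 91.6 ± 8.71 CPM in Chaf1a cko and 99.9 ± 6.53 CPM in Ctrl (SD, n = 3 each; log2 fold change -0.13, 95% interval -0.30 to 0.05). Hspb1 (chromosome 5, 135887919 to 135889563, plus strand) encodes a small heat shock protein that holds unfolded clients without ATP and binds actin. It averaged 174 ± 5.89 CPM in Chaf1a cko and 180.0 ± 6.13 CPM in Ctrl (SD, n = 3 each; log2 fold change -0.04, 95% interval -0.17 to 0.08). Both genes overlapped between the groups.

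Summed by compartment, the first-set groups did not overlap in either sum. The 5 ER genes summed to 2623, 2518 and 2562 CPM in replicates 1 to 3 of Chaf1a cko, against 2441, 2269.7 and 2295 CPM in replicates 1 to 3 of Ctrl. The 5 cytosolic genes summed to 943, 959 and 969 CPM in Chaf1a cko, against 1064, 1018 and 999.6 CPM in Ctrl. The ER sum divided by the cytosolic sum was 2.78, 2.63 and 2.64 in Chaf1a cko, against 2.29, 2.23 and 2.30 in Ctrl, so every Chaf1a cko library had the higher ratio. These sums are weighted to the abundant genes and are given without a test. In the first set the groups also stood apart in sums of lists given below. These were other ER chaperones, ER-associated degradation, the unfolded protein response, other small heat shock proteins, CCT and prefoldin, and mitochondrial chaperones. Immediate early genes and markers of cardiomyocytes, fibroblasts, mural cells and erythroid cells also stood apart. Sums of the other cytosolic genes and of endothelial, myeloid, lymphocyte and sex-linked genes overlapped.

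**Figure D2:**
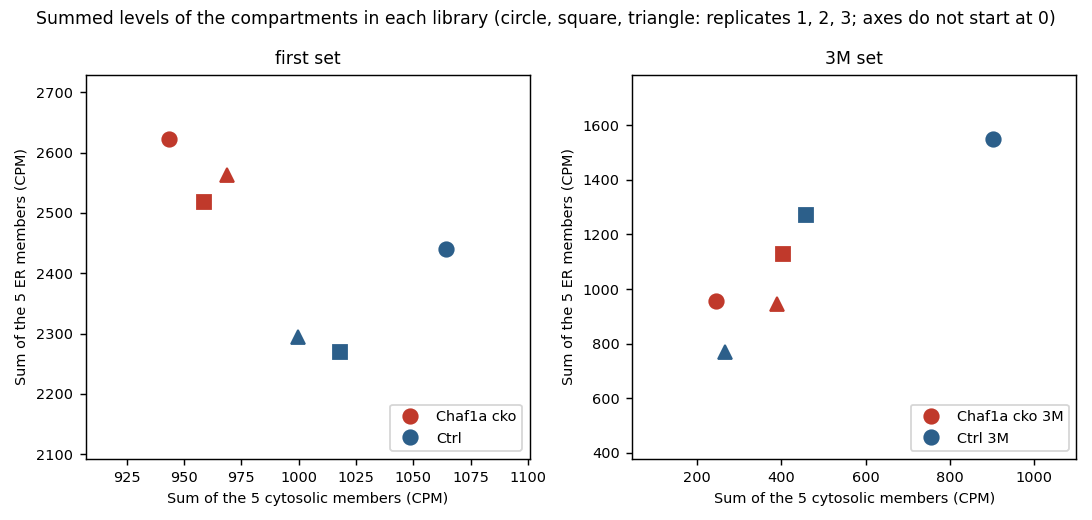
Summed CPM of the 5 ER members (y axis) against that of the 5 cytosolic members (x axis), 1 point per library, in each set. In the first set the Chaf1a cko libraries (2518 to 2623 CPM of ER members) lie above and to the left of the Ctrl libraries (2269.7 to 2441 CPM). In the 3M set the groups mix, and Ctrl 3M replicate 1 lies at the upper right with 1551 CPM of ER and 902 CPM of cytosolic members.

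The order of levels among the members, per kilobase of exon, was similar in both groups of the first set. In Chaf1a cko, Hspa5 was the most abundant at 216 CPM per kb, followed by Hsp90b1 at 176, Hspb1 at 169, Calr at 146, Hspa1b at 112, Hspa1a at 106, Canx at 95.2, Pdia4 at 33.4, Dnajb1 at 19.9 and Hsph1 at 12.6 CPM per kb. Only Hsp90b1 and Hspb1 were neighbours in that order whose libraries overlapped. In Ctrl, Hspb1 (174 CPM per kb) stood above Hsp90b1 (150 CPM per kb) and the order was otherwise the same, with overlapping libraries for the neighbours Hsp90b1 and Calr and for Hspa1b and Hspa1a.

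In the 3M set none of the 10 genes passed the test, and the groups overlapped in each of them. The edgeR test called 2 of 13925 genes in all (0.0144%), 1 higher (0.00718% of those tested) and 1 lower (0.00718%). Of the members 0 had an unadjusted p under 0.05 (6.93% of all genes did). DESeq2's Wald test called 0 members, against 72 of 13880 genes in all. The ER genes had a median log2 fold change of -0.27, with 2 of 5 above 0, and the cytosolic genes one of -0.72, with 0 of 5 above 0, where the median of all genes was -0.02 and 48% were above 0. The groups of the 3M set did not stand apart in any member, against 14.1% of all tested genes whose groups did not overlap, 7.21% higher and 6.89% lower. Ctrl 3M replicate 1 held the highest level of 8 of the 10 members.

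The inducible HSP70 genes had the lowest fitted fold changes of the members and, in Ctrl 3M, the highest CVs. Hspa1a was at 7.31, 6.29 and 2.48 CPM in replicates 1 to 3 of Chaf1a cko 3M, against 87.7, 12.6 and 5.35 CPM in replicates 1 to 3 of Ctrl 3M. Hspa1b was at 6.94, 7.57 and 11.6 CPM in Chaf1a cko 3M, against 187, 24.7 and 6.79 CPM in Ctrl 3M. Ctrl 3M replicate 1 was far above every other library in both genes, while Ctrl 3M replicate 3 lay within or below the Chaf1a cko 3M libraries. In Ctrl 3M the highest library exceeded the lowest 16.4-fold in Hspa1a and 27.6-fold in Hspa1b, with CVs of 129% and 136%. The log2 fold changes were -2.72 for Hspa1a (SE 1.16, 95% interval -5.61 to 0.17, adjusted p 0.716 in edgeR) and -3.06 for Hspa1b (SE 1.27, 95% interval -6.29 to 0.16, adjusted p 0.714 in edgeR). Without Ctrl 3M replicate 1 they were -0.75 and -0.86. The count of Hspa1a divided by that of Hspa1b was 1.05, 0.831 and 0.214 in Chaf1a cko 3M and 0.468, 0.511 and 0.788 in Ctrl 3M, while in the first set it was 0.966 to 1.03 in Chaf1a cko and 0.996 to 1.07 in Ctrl.

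The other cytosolic genes were also highest in Ctrl 3M replicate 1. Hsph1 was at 39.0, 74.5 and 65.7 CPM in replicates 1 to 3 of Chaf1a cko 3M, against 164, 83.9 and 46.8 CPM in replicates 1 to 3 of Ctrl 3M. Its log2 fold change was -0.72 (95% interval -1.82 to 0.39, adjusted p 0.794 in edgeR), and -0.13 without Ctrl 3M replicate 1. Dnajb1 was at 25.2, 28.2 and 58.4 CPM in Chaf1a cko 3M, against 60.7, 49.2 and 32.1 CPM in Ctrl 3M. In Dnajb1 the lone high Chaf1a cko 3M library was replicate 3, close to Ctrl 3M replicate 1, and the log2 fold change was -0.34 (95% interval -1.19 to 0.50). It was -0.82 without that Chaf1a cko 3M library and -0.13 without Ctrl 3M replicate 1. Hspb1 averaged 234 ± 62.6 CPM in Chaf1a cko 3M and 288 ± 114 CPM in Ctrl 3M (SD, n = 3 each; log2 fold change -0.30, 95% interval -1.04 to 0.44), and its log2 fold change was 0.016 without Ctrl 3M replicate 1.

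**Figure D3:**
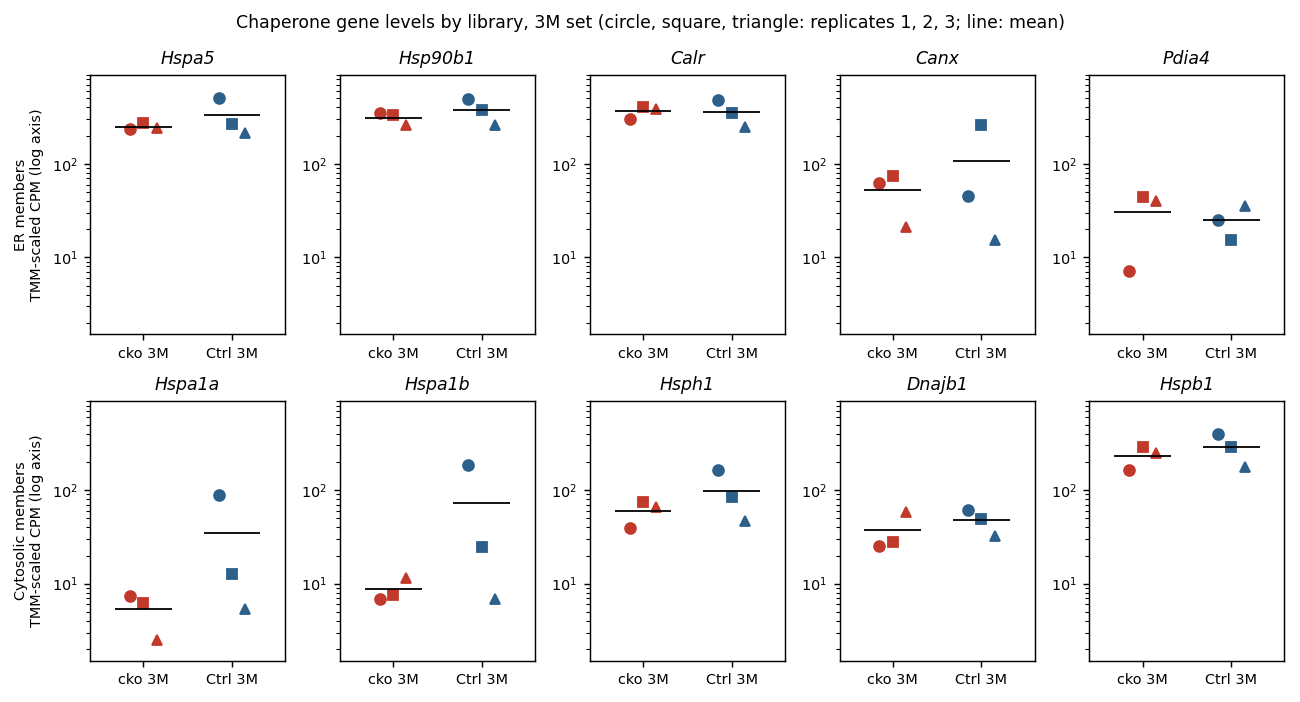
TMM-scaled CPM of each member in the 6 libraries of the 3M set on a log axis, with Chaf1a cko 3M left of Ctrl 3M and a line for the mean of 3 libraries. Ctrl 3M replicate 1 (circle) stands at 87.7 CPM in Hspa1a and 187 CPM in Hspa1b, and Ctrl 3M replicate 2 (square) at 259 CPM in Canx.

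Among the ER genes of the 3M set, Pdia4 and Canx had the highest CVs in Chaf1a cko 3M, at 66.8% and 53.0%. In Ctrl 3M, Canx had the highest CV at 125%, followed by Hspa5 at 46.5% and Pdia4 at 40.2%. Canx was at 62.3, 73.5 and 20.9 CPM in replicates 1 to 3 of Chaf1a cko 3M, against 45.4, 259 and 15.2 CPM in replicates 1 to 3 of Ctrl 3M. Here Ctrl 3M replicate 2, not replicate 1, was the high library, and the remaining 5 libraries of both groups intermingled. The log2 fold change of -1.03 (95% interval -3.87 to 1.81, adjusted p 0.880 in edgeR) was 0.79 without Ctrl 3M replicate 2. Pdia4 was at 7.12, 44.4 and 40.0 CPM in Chaf1a cko 3M, against 25.05, 15.3 and 35.7 CPM in Ctrl 3M, so Chaf1a cko 3M replicate 1 was the lowest library of the set. Its log2 fold change was 0.27 (95% interval -1.33 to 1.87), and it was 0.74 when Chaf1a cko 3M replicate 1 was left out and -0.10 when replicate 2 was.

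Hspa5, which held the closest Chaf1a cko 3M libraries of the ER genes, was at 236, 275 and 239 CPM in replicates 1 to 3 of Chaf1a cko 3M, against 503, 269 and 215 CPM in replicates 1 to 3 of Ctrl 3M. Ctrl 3M replicate 1 was above the rest, while Ctrl 3M replicate 2 lay within the Chaf1a cko 3M range and replicate 3 below it. The log2 fold change was -0.39 (95% interval -1.09 to 0.30, adjusted p 0.822 in edgeR), and 0.046 without Ctrl 3M replicate 1. Hsp90b1, the gene called in the first set, averaged 312 ± 47.7 CPM in Chaf1a cko 3M and 376 ± 121 CPM in Ctrl 3M (SD, n = 3 each). Its log2 fold change was -0.27 (95% interval -0.87 to 0.32, adjusted p 0.861 in edgeR) and -0.02 without Ctrl 3M replicate 1. Calr averaged 364 ± 54.2 CPM in Chaf1a cko 3M and 360.0 ± 117 CPM in Ctrl 3M (SD, n = 3 each; log2 fold change 0.02, 95% interval -0.58 to 0.61), with 0.28 without Ctrl 3M replicate 1 and -0.19 without Ctrl 3M replicate 3.

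The compartment sums of the 3M set overlapped between the groups. The ER genes summed to 954, 1128 and 944 CPM in replicates 1 to 3 of Chaf1a cko 3M, against 1551, 1269.7 and 769.6 CPM in replicates 1 to 3 of Ctrl 3M. The cytosolic genes summed to 244, 404 and 389 CPM in Chaf1a cko 3M, against 902, 458 and 266 CPM in Ctrl 3M. The ER sum divided by the cytosolic sum was 3.92, 2.79 and 2.43 in Chaf1a cko 3M, against 1.72, 2.77 and 2.89 in Ctrl 3M, so the order of the groups seen in every library of the first set did not occur here. The log2 ratio of the group means of the cytosolic sum was -0.65, and -0.07 without Ctrl 3M replicate 1. Per kilobase, Hspb1 was the most abundant member in both groups, at 227 CPM per kb in Chaf1a cko 3M and 279.8 in Ctrl 3M, followed by Calr, Hsp90b1 and Hspa5. Hspa1b and Hspa1a were the least abundant in Chaf1a cko 3M, at 3.10 and 1.81 CPM per kb, and stood at 26.0 and 11.9 CPM per kb in Ctrl 3M, where the libraries of all neighbours in the order from Calr downwards overlapped.

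Ctrl 3M replicate 1 stood apart in high values beyond the members. At least 3-fold above every other library of its set, a limit chosen after the values were seen, it held 163 of the 13925 tested genes (1.17%), against 13 to 45 genes in the other 3M libraries. These included Hspa1a and Hspa1b, and from the lists used here Hsp90aa1, Chordc1, Hspa13, Tmx1, Sec63 and Egr3. At least 3-fold below every other library, with ties at 0 counted, Chaf1a cko 3M replicate 3 held the most genes (605). Ctrl 3M replicate 1 followed with 555, and the other 3M libraries held 220 to 361, with no member in any library. Hsp90aa1, the inducible cytosolic HSP90, was at 140.5, 232 and 239.8 CPM in replicates 1 to 3 of Chaf1a cko 3M, against 1061, 236 and 173 CPM in replicates 1 to 3 of Ctrl 3M. Dnaja1, an HSP40 co-chaperone, was at 182, 237 and 179 CPM in Chaf1a cko 3M, against 921, 341 and 156 CPM in Ctrl 3M.

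Whether the effect differed between the sets was tested as the interaction of set and genotype over all 12 libraries, as the effect in the 3M set minus that in the first set. None of the 10 members passed, where 15 of 22803 genes did (0.0658%), and DESeq2 called 0 of the 7 members for which it gave an adjusted p (it gave none for Canx, Hspa1a and Hspa1b). At an unadjusted p under 0.05 there were 2 of 10 members, against 9.47% of all genes. These were Hspa1b, with a difference of -2.95 (SE 1.16, 95% interval -5.51 to -0.39, adjusted p 0.520 in edgeR), and Hspa1a, with -2.55 (SE 1.09, 95% interval -4.94 to -0.16, adjusted p 0.526 in edgeR). Without Ctrl 3M replicate 1 the differences were -0.82 for Hspa1b and -0.65 for Hspa1a. For Hsp90b1 the difference was -0.47 (95% interval -1.09 to 0.16, adjusted p 0.644 in edgeR), so the rise in the first set was not shown to differ from the 3M value.

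**Figure D4:**
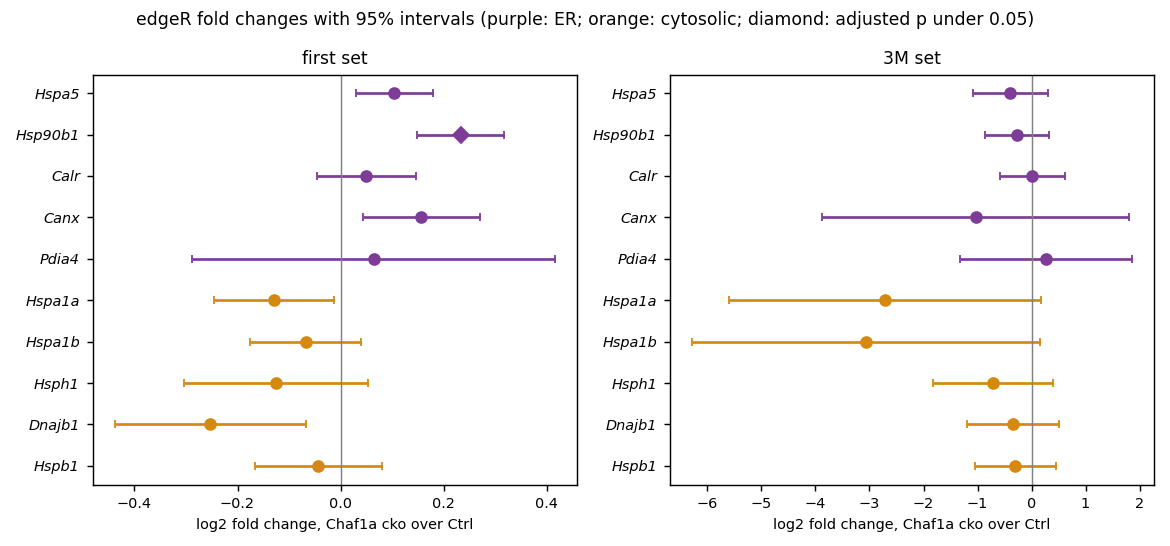
edgeR log2 fold changes of the 10 members with 95% intervals, Chaf1a cko over Ctrl, in the first set and the 3M set (the x axes differ). In the first set the fitted values of the 5 ER members lie above 0 and those of the 5 cytosolic members below, with Hsp90b1 (0.23) the only one past the threshold. The intervals of Calr, Pdia4, Hspa1b, Hsph1 and Hspb1 include 0 there. In the 3M set the interval of every member includes 0.

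Other genes of protein folding were counted by list. Of all genes tested in the first set, 10.1% had an unadjusted p under 0.05 and 49.1% a fitted log2 fold change above 0. The groups of 8.33% did not overlap in the higher direction. In the first set, of 34 other ER chaperones and folding enzymes 0 passed in edgeR, 6 had an unadjusted p under 0.05, and DESeq2 called 1 higher and 1 lower (Manf and Dnajb9, named after their values were seen). The median log2 fold change of this list was 0.09, with 22 of 34 above 0. Its most abundant members were P4hb, the beta subunit of collagen prolyl hydroxylase and a disulfide isomerase (295 ± 19.3 CPM in Chaf1a cko and 277 ± 11.3 CPM in Ctrl; SD, n = 3 each; log2 fold change 0.09), Serpinh1, the collagen chaperone (0.05), Pdia3, the partner of the lectin chaperones (0.13), and Fkbp9 (0.17). Of 29 genes of ER-associated degradation and the translocon 0 passed in edgeR and 4 had an unadjusted p under 0.05. DESeq2 called 1 of them, Ssr3, a subunit of the translocon-associated complex (208 ± 9.75 CPM in Chaf1a cko and 180.0 ± 6.12 CPM in Ctrl; SD, n = 3 each; log2 fold change 0.20, adjusted p 0.134 in edgeR). In this list 24 of 29 genes were above 0, with a median of 0.09.

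Of 20 sensors and factors of the unfolded protein response 0 rose and 1 fell. Ppp1r15a, which encodes GADD34, a phosphatase subunit that restores translation after stress, averaged 513 ± 4.98 CPM in Chaf1a cko and 618 ± 21.1 CPM in Ctrl (SD, n = 3 each). Its log2 fold change was -0.27 (95% interval -0.35 to -0.18, SE 0.04, adjusted p 0.00123 in edgeR). Atf4, the transcription factor of the integrated stress response, had a log2 fold change of -0.15 (adjusted p 0.399 in edgeR), Mbtps1, the protease that cuts Atf6, one of -0.09, and Ppp1r15b one of -0.06. Xbp1, the transcription factor whose transcript Ern1 splices, was named after its values were seen, as DESeq2 called it: 50.1 ± 2.57 CPM in Chaf1a cko and 36.7 ± 5.31 CPM in Ctrl (SD, n = 3 each; log2 fold change 0.45, adjusted p 0.103 in edgeR and 0.0176 in DESeq2). The list's median was -0.06, with 7 of 20 above 0.

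Of 37 other cytosolic HSP70, HSP90 and HSP40 genes, co-chaperones and heat shock factors 1 rose, 0 fell and 7 had an unadjusted p under 0.05. Hsp90ab1, the constitutive cytosolic HSP90, averaged 2999 ± 57.3 CPM in Chaf1a cko and 2756 ± 90.0 CPM in Ctrl (SD, n = 3 each; log2 fold change 0.12, SE 0.03, adjusted p 0.0295 in edgeR and 0.0704 in DESeq2). DESeq2 called 1 gene of the list, Bag1, a co-chaperone of HSP70 named after its values were seen (145 ± 5.46 CPM in Chaf1a cko and 123 ± 1.42 CPM in Ctrl; SD, n = 3 each; log2 fold change 0.23, adjusted p 0.107 in edgeR and 0.0272 in DESeq2). The next most abundant members had log2 fold changes of 0.04 for Hspa8, the constitutive HSP70, -0.05 for Hsp90aa1 and -0.13 for Bag3, a co-chaperone of HSP70 and small heat shock proteins. The list had a median of 0.05, with 26 of 37 above 0, on the other side of 0 from the 5 cytosolic members. Of 7 other small heat shock proteins 0 passed in edgeR or DESeq2 and 1 had an unadjusted p under 0.05. Hspb7, a small heat shock protein of heart muscle, was at 719 ± 23.5 CPM in Chaf1a cko and 761 ± 21.1 CPM in Ctrl (SD, n = 3 each; log2 fold change -0.08), and Cryab, which guards desmin, had a log2 fold change of -0.14.

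Of 14 subunits of the CCT chaperonin, which folds actin and tubulin, and of prefoldin, 0 passed in edgeR, 7 had an unadjusted p under 0.05 and DESeq2 called 1, Cct4 (named after its values were seen). In this list 13 of 14 genes were above 0, with a median log2 fold change of 0.14, and the groups of 7 did not overlap in the higher direction. Tcp1, the first CCT subunit, averaged 410.4 ± 13.7 CPM in Chaf1a cko and 371 ± 14.0 CPM in Ctrl (SD, n = 3 each; log2 fold change 0.14, adjusted p 0.225 in edgeR). Of 18 mitochondrial chaperones and proteases 0 passed in edgeR or DESeq2 and 2 had an unadjusted p under 0.05, with a median of 0.07. Hspa9, the mitochondrial HSP70, averaged 713 ± 8.49 CPM in Chaf1a cko and 649 ± 9.65 CPM in Ctrl (SD, n = 3 each; log2 fold change 0.14, adjusted p 0.103 in edgeR).

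Other gene groups moved in the same libraries of the first set. Of 26 immediate early and dissociation genes, which respond within minutes to growth factors, stress and tissue digestion, 0 rose and 7 fell. Their summed level was 4311 to 4366 CPM in Chaf1a cko and 5109 to 5320 CPM in Ctrl. Egr1 averaged 328 ± 11.6 CPM in Chaf1a cko and 469 ± 10.7 CPM in Ctrl (SD, n = 3 each; log2 fold change -0.51, adjusted p 4.59e-06 in edgeR), and Atf3, Fos and Jun fell by 0.57, 0.41 and 0.33 on the log2 scale. Of 10 fibroblast markers 0 rose and 5 fell, and their sum was 3155 to 3193 CPM in Chaf1a cko and 3760.3 to 3857 CPM in Ctrl, with 0 markers at 0. Of 9 markers of mural and smooth muscle cells 1 rose and 1 fell, with a sum of 1572 to 1586 CPM in Chaf1a cko and 1267 to 1343 CPM in Ctrl. Ddx3y, Eif2s3y, Kdm5d and Uty, genes of the Y chromosome, rose, with Ddx3y at 65.2 ± 8.82 CPM in Chaf1a cko and 30.2 ± 6.12 CPM in Ctrl (SD, n = 3 each), so a difference in the mixture of sexes and a difference of genotype cannot be told apart here. Xist, the other sex-linked gene of this list of 5, passed in neither edgeR nor DESeq2. These 5 genes summed to 457, 397 and 384 CPM in replicates 1 to 3 of Chaf1a cko. In replicates 1 to 3 of Ctrl the sums were 650, 672 and 341 CPM, so the Ctrl libraries also differed among themselves. Of 12 cardiomyocyte markers 3 rose and 4 fell. Of 7 erythroid markers 0 passed in edgeR, 2 had an unadjusted p under 0.05 and DESeq2 called 1 (Alas2, higher), with a median log2 fold change of 0.44 and a sum of 2296 to 2321 CPM in Chaf1a cko and 1655 to 2232 CPM in Ctrl. The part of these gene groups in the chaperone values was not tested.

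In the 3M set 0 genes of these 8 lists passed in edgeR. Of all genes tested there, 6.93% had an unadjusted p under 0.05. Unadjusted p-values under 0.05 were found for 1 of 33 other ER chaperones, 3 of 28 genes of ER-associated degradation, 3 of 20 of the unfolded protein response, 1 of 37 other cytosolic genes, 1 of 18 mitochondrial genes and 2 of 25 immediate early genes, and for 0 of 7 small heat shock proteins and 0 of 14 CCT and prefoldin genes. DESeq2 called 2 genes in them, the immediate early genes Egr3 and Fos, both lower and both named after their values were seen. The medians ran from -0.39 for the small heat shock proteins and -0.38 for the immediate early genes to 0.07 for the unfolded protein response. For CCT and prefoldin the median was -0.23, with 2 of 14 above 0, where it was 0.14 in the first set. For ER-associated degradation it was -0.19, with 9 of 28 above 0, where it was 0.09 in the first set. Of all genes 48% were above 0. In each of these 2 lists the groups of 4 genes did not overlap in the lower direction, against 6.89% of all genes. Among the most abundant, Hspa8 was at 1486 ± 235 CPM in Chaf1a cko 3M and 1801 ± 487 CPM in Ctrl 3M (SD, n = 3 each; log2 fold change -0.28, 95% interval -0.83 to 0.27). Cryab was at 406 ± 121 CPM in Chaf1a cko 3M and 527 ± 206 CPM in Ctrl 3M (SD, n = 3 each; log2 fold change -0.38, 95% interval -1.16 to 0.41). P4hb had a log2 fold change of 0.14, Herpud1, a membrane protein of ER-associated degradation, one of 0.31, and Xbp1 one of -0.55 (95% interval -1.24 to 0.15). The sum of the cardiomyocyte markers did not overlap between the 3M groups, nor did that of the 11 myeloid markers, at 304 to 382 CPM in Chaf1a cko 3M and 479 to 569.6 CPM in Ctrl 3M, and their part in the chaperone values was not tested. The erythroid markers summed to 4012, 3251 and 446 CPM in replicates 1 to 3 of Chaf1a cko 3M, against 689, 447 and 1036 CPM in replicates 1 to 3 of Ctrl 3M, with 0 of 5 tested genes called by edgeR or DESeq2 and 1 with an unadjusted p under 0.05. Of the 4 sex-linked genes tested, edgeR called 0, 1 had an unadjusted p under 0.05 and DESeq2 called that 1, Ddx3y, lower. It was at 144, 112 and 156 CPM in replicates 1 to 3 of Chaf1a cko 3M, against 354, 202 and 315 CPM in replicates 1 to 3 of Ctrl 3M (log2 fold change -1.08, adjusted p 0.554 in edgeR and 0.0398 in DESeq2). The part of the erythroid and sex-linked genes was not tested either.

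**Figure D5:**
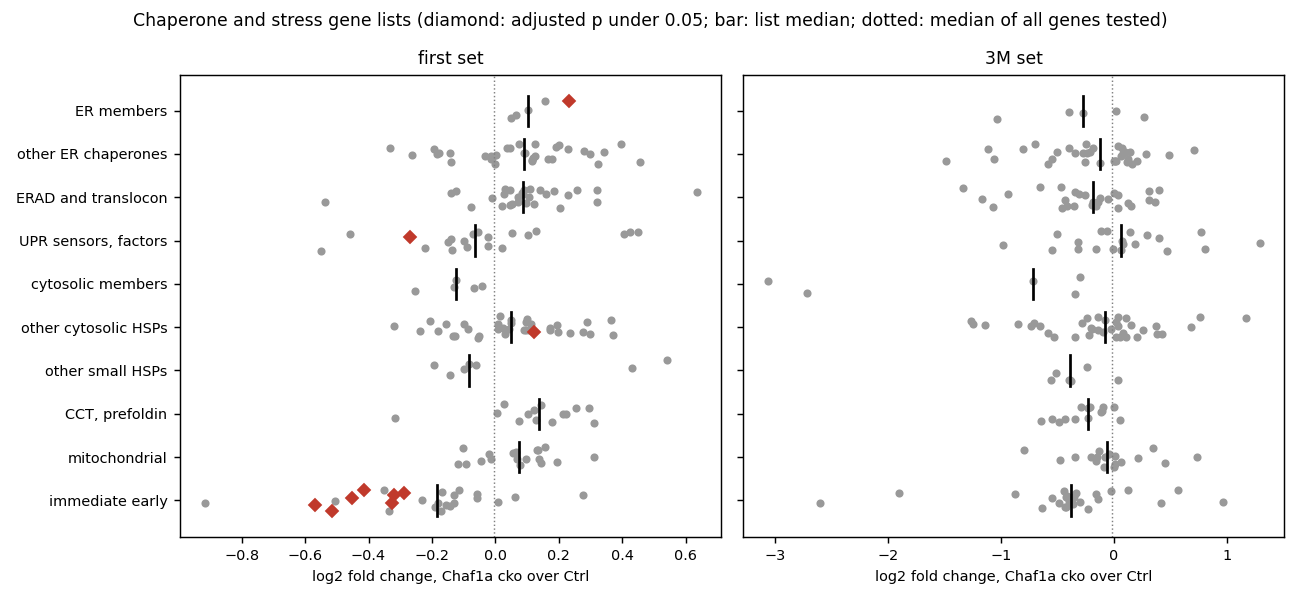
edgeR log2 fold changes, Chaf1a cko over Ctrl, of every tested gene of the 2 member groups and the 8 other lists, 1 point per gene, with a bar for the list median and diamonds for genes past the threshold. In the first set the ER members, the other ER chaperones and the CCT list have medians of 0.10, 0.09 and 0.14 and the cytosolic members one of -0.13, while in the 3M set the cytosolic members have a median of -0.72, with Hspa1b (-3.06) and Hspa1a (-2.72) at the far left.

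Pairs of members varied together to different degrees, and no test of these correlations was made. Over the 6 libraries of the first set, which hold the group difference as well, the median Pearson r of log2 CPM was 0.72 among the 10 pairs of ER genes, 0.21 among the 10 pairs of cytosolic genes and -0.39 among the 25 pairs between compartments. Over the 6 libraries of the 3M set it was 0.25 among ER pairs, 0.76 among cytosolic pairs and 0.54 between compartments. The libraries of a pair share their depth and scaling, and in the 3M set Ctrl 3M replicate 1. Of the 4185 genes whose mean log2 CPM was 5 or more in both tables, those most like the mean of the ER genes over the 12 libraries, each table centred on its mean, were Acer2 (r 0.93), Picalm (0.92), Rhob (0.92), Hspa8 (0.92) and Irf2 (0.91). Those most like the mean of the cytosolic genes were Cacybp (0.98), Dnaja1 (0.98), Dock1 (0.97), Rab2a (0.97) and Slc30a1 (0.97). Without Ctrl 3M replicate 1 the r values of the last 5 were 0.83 to 0.90 with Spearman's rho of 0.38 to 0.62, and those of the first 5 were 0.91 to 0.93 with rho of 0.67 to 0.94. The values were centred but not scaled, so the 3M libraries weigh most in r. The median CV of the members was 30.0% in Chaf1a cko 3M and 43.3% in Ctrl 3M, against 2.97% in Chaf1a cko and 4.52% in Ctrl. Other genes also varied more in the 3M set. Genes of the level of Hspa5 had a median CV of 13.4% in Chaf1a cko 3M and 20.9% in Ctrl 3M. In Chaf1a cko and Ctrl it was 2.11% and 3.07%. Among genes of like level the members' CVs lay at percentiles 26.2 (Hspa5) to 97.4 (Pdia4) in Chaf1a cko 3M. In Ctrl 3M they lay at 73.4 (Hsp90b1) to 99.6 (Hspa1b). Ctrl 3M replicate 2, the high library of Canx, was not left out here.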

How the data were processed

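Total RNA of mouse heart cardiomyocytes was sequenced in 12 libraries, with a stranded kit that removes ribosomal RNA, per the labels' protocols. The authors deposited 2 tables, each with the raw counts of 6 libraries by gene symbol. Per the submitters' processing notes, FastQC, Trimmomatic and HISAT2 with mm10 were used. For counting, the program, annotation and strandedness were not given in the sources used here. Reads of overlapping genes therefore cannot be told apart: Hsp90b1 overlaps 1810014B01Rik, and Hspa1a overlaps Gm20481, on the opposite strand. Columns were matched to samples by name, and 0 columns were left without a sample. Library totals ran from 10569325 to 20896673 counts, and member counts from 39 to 18270. Standard errors include the counting error at this depth.

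The tables were fitted separately with edgeR 4.0.16 and limma 3.58.1 (R 4.3.3): filterByExpr (minimum count 10, minimum total 15), TMM, glmQLFit with robust estimation and a two-sided glmQLFTest of Chaf1a cko against Ctrl, with Benjamini-Hochberg adjustment over all genes tested and a threshold of 0.05. The interaction used all 12 libraries, with a shared estimate of the spread of each gene over both sets. The steps were tested on simulated data. Alternatives were DESeq2 1.42.0 (Wald test, size factors), library size alone, no filter, a filter of 10 CPM in 3 libraries, a replicate block, Hspa1a and Hspa1b summed, and leaving out each library. Replicate numbers were not used for pairing.

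The 10 members and the gene lists were chosen with earlier results of these data known. Genes named besides members were up to 4 per list and table: called genes by smallest p, or, with fewer than 2 called, the most abundant. Fewer were given where a list held none called. The genes most like each compartment by Pearson r completed the rule, and exceptions are stated. All 10 members matched RefSeq of GRCm38.p6, the assembly of mm10, which gave coordinates (counted from 1) and promoters. Exon lengths are from GENCODE.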

Additional observations from a re-analysis of the deposited data

How the results depend on the processing

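The count of members past the threshold in the first set was 1 under every alternative other than leaving out a library, and it was 0 for the 3M set and for the difference between the sets under every alternative run. For that difference DESeq2 gave no adjusted p for Canx, Hspa1a and Hspa1b, so its 0 covers the other 7 members. Leaving out each library in turn gave 0 to 2 called members in the first set, with 0 without Ctrl replicate 2 and 2 without Ctrl replicate 1. Of 259 alternative values of member fold changes 9 changed sign, and 14 of those of the difference between the sets did, each when a library was left out. With each library left out in turn the log2 fold change ran from -0.075 to 0.25 for Pdia4 in the first set. In the 3M set it ran from -0.19 to 0.28 for Calr, -0.10 to 0.74 for Pdia4, -0.63 to 0.046 for Hspa5, -0.56 to 0.016 for Hspb1 and -1.55 to 0.79 for Canx. The difference between the sets ran from -0.21 to 0.22 for Calr, -0.53 to 0.15 for Dnajb1, -0.13 to 0.70 for Pdia4, -0.48 to 0.050 for Hspb1 and -1.67 to 0.67 for Canx. The cause was not tested.

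Over all genes, edgeR called 270 of 22965 (first set) and 2 of 13925 (3M set). DESeq2's Wald test called 479 of 11387 and 72 of 13880, the genes to which it gave an adjusted p. Without a filter edgeR called 6 in the 3M set. Leaving out each library in turn gave 128 to 201 (first set) and 0 to 5 (3M set). The filter of 10 CPM removed Hspa1a from the 3M set. With the replicate number as a block, the calls were 192 genes and 1 member in the first set and 0 genes and 0 members in the 3M set. The numbers were not taken as pairs. In the first set, libraries of the same number had correlations of deviations from -0.03 to 0.01, and those of different numbers from -0.05 to 0.05. In the 3M set the values were 0.05 to 0.12 for the same number and -0.10 to 0.02 for different numbers. The same-number values of the 3M set thus lay above the others, and what libraries of the same number share was not tested. The block changed no call of a member, but in the 3M set it gave log2 fold changes of -0.28 for Canx, -1.85 for Hspa1b, -1.88 for Hspa1a and 0.0042 for Pdia4, against -1.03, -3.06, -2.72 and 0.27 without it. Precision in the 3M set was limited by the spread between its libraries: the 95% interval of Hsp90b1 there, -0.87 to 0.32, includes its first-set value of 0.23.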

Other observations

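Genes outside the 10 members whose promoters hold the letters of ERSE numbered 31. Of the 21 tested in the first set 0 passed in edgeR, 3 had an unadjusted p under 0.05 and DESeq2 called 1, with 10 of 21 above 0 and a median log2 fold change of -0.01. Of the 13 tested in the 3M set 0 passed in edgeR, 2 had an unadjusted p under 0.05 and DESeq2 called 0, with 4 of 13 above 0 and a median of -0.12. Among the 28 other ER chaperones with a promoter entry 4 held ERSE (Creld2, Dnajc3, Ero1b and Pdia6), as did 2 of 22 genes of ER-associated degradation and the translocon (Derl3 and Syvn1). The HSE of 2 units occurred in 7 of 30 other cytosolic chaperone genes with a promoter entry, 23.3%, against 14.5% of all genes.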
